A study of Mus musculus with 8 samples.

Results

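The MAF, BACH and NRF proteins are basic leucine zipper transcription factors that share partners and related DNA sites. Expression of 9 of their genes was compared between wild-type (WT) Th17 cells and Th17 cells lacking TRIM28. These were the large MAF gene *Maf*, the small MAF genes *Maff*, *Mafg* and *Mafk*, the BACH genes *Bach1* and *Bach2*, the NRF genes *Nfe2l1* (NRF1) and *Nfe2l2* (NRF2), and *Keap1*, whose product controls NRF2. The 9 genes were taken by gene symbol from the 13704 genes listed in at least 1 of the 2 RNA-seq count tables, and all 9 were listed in both.

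TRIM28 is a co-repressor best known for silencing chromatin. The WT library came from C57BL/6 naive CD4+ T cells kept for 3 days in TGF-β at 0.5 ng/ml together with IL-6 at 20 ng/ml, which drive differentiation to Th17 cells, the helper T cells that secrete IL-17. The knockout (KO) library came from cells of Trim28 fl/fl mice in which Cre, driven by the *Cd4* promoter, deletes *Trim28* in developing T cells, so that CD8 T cells of these mice carry the deletion too. The control is labelled only as wild type, and the age, number and pooling of the mice behind each library are not given in the sources used here. The methods of the study add that cells were stimulated again through CD3 before RNA was taken.

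Each genotype had 1 library, so there is no replicate error, no p-value is given, and a difference between these libraries cannot be told apart from one between any pair of cultures. The WT library held 6650066 reads counted to genes and the KO library 6185108. Levels are given as CPM, that is reads per 1000000 counted reads, and differences as the log2 of KO over WT. The 95% intervals are exact and cover counting error alone, and copies made by PCR could not be recognised and removed. *Trim28* itself had 4485 reads in WT and 180 in KO, 674 and 29.1 CPM, which matches the labels. T cell markers summed to 3573 CPM in WT and 3412 CPM in KO, led by *Cd5*, *Cd4* and *Cd3e*, and none of the 6 passed 2-fold. Macrophage markers had 2 reads in WT and 3 in KO over 7 genes, and *Csf1r*, *Adgre1*, *Lyz2* and *Fcgr1* had no read in either library. Erythroid and platelet markers had 10 reads in WT and 14 in KO over 6 genes, of which 4 had no read in either. In bulk RNA, fewer cells of a type and less RNA per cell cannot be told apart.

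Small MAF proteins carry no activation domain of their own and pair with BACH proteins, which repress, or with NRF proteins, which activate, at antioxidant response elements. KEAP1 holds NRF2 for degradation through a CUL3 ubiquitin ligase until oxidants or electrophiles modify it, BACH1 leaves DNA when it binds heme, and NRF1 drives proteasome genes after it is released from the endoplasmic reticulum. In T cells, c-Maf, the product of *Maf*, is known for driving *Il10* and *Il21*, and BACH2 for holding back effector genes.

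On the mouse GRCm38 assembly, *Maf* lies on the minus strand at chr8:115703253-115706894 as a gene of 1 curated exon. *Bach2* spans chr4:32238413-32586109 on the plus strand and *Bach1* chr16:87698954-87733346 on the plus strand, with 5 exons each. *Maff* is at chr15:79346621-79359078 and *Mafk* at chr5:139791536-139802653, both on the plus strand, and *Mafg* is at chr11:120625117-120634955 on the minus strand. *Nfe2l1* at chr11:96817414-96829968, *Nfe2l2* at chr2:75675513-75704663 and *Keap1* at chr9:21229730-21239332 are all on the minus strand.

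The 250 bases before a curated RefSeq start (GRCm38.p6) were searched on both strands for sites of these families, and 8 of the 9 genes had at least 1 such window, 14 windows in all. The window of *Maf* was not used here. The core of the antioxidant response element, TGACNNNGC, was present for *Maff*, *Mafg*, *Mafk* and *Nfe2l2*, in 4 of the 14 windows, and in 10.2% of all 32851 windows of this length. The half-site of MAF factors, TGCTGA, was present for *Mafk*, *Bach1* and *Nfe2l1*, in 5 of the 14 windows, 3 of them overlapping windows of *Nfe2l1*, and in 16.1% of all windows. The AP-1 site TGACTCA was in none of the 14 windows and in 4.46% of all, and the cyclic AMP response element TGACGTCA was in 1 of the *Maff* windows only and in 1.55% of all. The motifs can overlap one another, and a match describes the letters, not a bound site. Windows of 4 genes are given here 5′ to 3′ on the strand of the gene. They are those of the pair of BACH genes, both lower in KO, and of *Mafk* and *Nfe2l2*, whose counts differed little. These 4 were picked with their counts known, and *Mafg*, which also holds the element core, was lower in KO. Whether the windows bear on the differences was not tested. The *Bach2* window precedes its 1 curated start, which lies inside the annotated span of the gene, whereas the other 3 windows directly precede the first base of theirs. Capitals mark the matches on either strand.
Bach1, plus strand, chr16:87698704-87698953: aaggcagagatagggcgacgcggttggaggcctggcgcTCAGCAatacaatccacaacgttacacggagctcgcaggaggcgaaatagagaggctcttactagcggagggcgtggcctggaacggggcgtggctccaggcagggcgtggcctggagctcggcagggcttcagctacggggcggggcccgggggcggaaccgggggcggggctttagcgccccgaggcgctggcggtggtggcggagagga
Bach2, plus strand, chr4:32417185-32417434: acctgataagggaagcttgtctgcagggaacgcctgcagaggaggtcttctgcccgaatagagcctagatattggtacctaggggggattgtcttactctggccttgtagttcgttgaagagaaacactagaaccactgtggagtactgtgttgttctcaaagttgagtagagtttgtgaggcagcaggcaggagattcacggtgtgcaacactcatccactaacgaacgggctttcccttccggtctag
Mafk, plus strand, chr5:139791286-139791535: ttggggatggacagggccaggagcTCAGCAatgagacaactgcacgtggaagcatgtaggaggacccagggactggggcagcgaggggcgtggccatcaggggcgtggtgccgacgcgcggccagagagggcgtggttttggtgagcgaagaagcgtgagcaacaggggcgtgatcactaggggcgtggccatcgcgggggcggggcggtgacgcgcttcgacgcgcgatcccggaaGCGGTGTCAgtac
Nfe2l2, minus strand, chr2:75704664-75704913: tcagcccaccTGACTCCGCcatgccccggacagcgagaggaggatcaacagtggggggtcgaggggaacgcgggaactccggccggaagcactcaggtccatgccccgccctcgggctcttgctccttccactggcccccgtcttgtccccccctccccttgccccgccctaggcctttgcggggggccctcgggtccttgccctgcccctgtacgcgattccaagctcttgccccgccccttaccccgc
The element core begins 13 bases before the start of *Mafk* and 240 before that of *Nfe2l2*, and the MAF half-site 226 before *Mafk* and 212 before *Bach1*. No searched motif was in the *Bach2* window. The *Bach2* window, at that internal start, held 7 CpG dinucleotides against 25 in *Bach1*, 25 in *Mafk* and 18 in *Nfe2l2*. The median of all windows was 6.

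*Maf* showed the lowest log2 difference of the 9 genes. It had 6699 reads in WT and 1431 in KO, 1007 and 231 CPM, so that the KO level was 23.0% of the WT level. The log2 difference was -2.12 (95% interval -2.21 to -2.04), a level 4.35-fold lower in KO. By number of reads *Maf* ranked 111 among the 13078 genes listed in WT and 858 among the 12754 listed in KO. Only 1.53% of the 10881 tested genes, those whose reads in WT and KO summed to at least 10, had a lower log2 difference. *Maf* was therefore an abundant transcript in WT cells that remained readily detected in KO cells. A small stretch of its longest annotated transcript is shared with the overlapping gene Gm15655, whose reads cannot be told apart there because the strand setting of the counting is not given.

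The Th17 cytokine genes were also past 2-fold lower in KO, and none of the 6 T cell markers was. Intervals lay below 0 for *Cd4* (-0.16, 95% interval -0.20 to -0.11), *Cd5* (-0.26, -0.30 to -0.21) and *Lck* (-0.23, -0.42 to -0.05). They lay above 0 for *Cd3d* (0.18, 0.04 to 0.31), *Cd3e* (0.22, 0.16 to 0.28) and *Cd3g* (0.18, 0.09 to 0.27). *Il17a* had 2226 reads in WT and 381 in KO, a log2 difference of -2.44, and *Il17f* had 3143 and 345, a difference of -3.08. The 5 Th17 markers together stood at 1139 CPM in WT and 328 CPM in KO. Whether the share of Th17 cells in the culture had a part in the *Maf* difference was not tested.

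The small MAF genes differed less and not in 1 direction. *Mafg* had 267 reads in WT and 156 in KO, 40.2 and 25.2 CPM, a log2 difference of -0.67 (95% interval -0.97 to -0.38). *Mafk* had 311 and 262 reads, a difference of -0.14 (-0.39 to 0.10). *Maff* had 104 and 111 reads, a difference of 0.20 (-0.20 to 0.60). Only the interval of *Mafg* left out 0, and it was 1.59-fold lower in KO. Summed over the 3 genes, small MAF reads were 682 in WT and 529 in KO, or 103 and 85.5 CPM, a log2 difference of -0.26 (-0.43 to -0.10). *Mafg* overlaps the neighbouring gene *Sirt7*, which had 849 and 810 reads.

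Both BACH genes were lower in KO by less than 2-fold. *Bach2*, the more abundant, had 4049 reads in WT and 2044 in KO, 609 and 330 CPM, a log2 difference of -0.88 (95% interval -0.96 to -0.80), or 1.84-fold lower. *Bach1* had 111 and 59 reads, 16.7 and 9.54 CPM, a difference of -0.80 (-1.29 to -0.34), or 1.74-fold lower. The balance between them was nearly the same, since *Bach1* had 0.0274 reads per *Bach2* read in WT and 0.0289 in KO (ratio of ratios 1.05, exact interval 0.751 to 1.46). By reads, *Bach2* ranked 235 in WT and 522 in KO. The antisense gene Bach2os, which shares sequence with *Bach2*, had 12 and 11 reads.

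*Bach2* is also a B cell gene, and B cell markers were few. The 5 of them summed to 83 reads in WT and 44 in KO, 12.5 and 7.11 CPM, beside 4049 and 2044 *Bach2* reads. *Cd79a*, part of the B cell receptor, had 20 and 8 reads and its partner *Cd79b* 15 and 2, both past 2-fold. *Pax5*, a B lineage factor, had 8 reads in WT and none in KO, under the 10 reads needed for a fold change. The CD8 markers had 53 reads in WT and 29 in KO.

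The NRF genes parted from each other. *Nfe2l2* had 372 reads in WT and 344 in KO, 55.9 and 55.6 CPM, and a log2 difference of -0.01 (95% interval -0.22 to 0.21). *Nfe2l1* had 32 and 12 reads, 4.81 and 1.94 CPM, a difference of -1.27 (-2.40 to -0.31), or 2.42-fold lower. The NRF2 transcript thus stood at nearly the same level in both libraries, whereas the NRF1 transcript was past 2-fold on few reads. *Nfe2l1* had 0.0860 reads per *Nfe2l2* read in WT and 0.0349 in KO, and the KO ratio was 0.406 of the WT ratio (exact interval 0.187 to 0.825). *Keap1* had 56 and 38 reads, 8.42 and 6.14 CPM, with a log2 difference of -0.45 (-1.09 to 0.17). The reads of *Nfe2l2* per read of *Keap1* were 6.64 in WT and 9.05 in KO, a ratio of ratios of 1.36 whose interval, 0.862 to 2.17, held 1. *Keap1* shares some sequence with the overlapping gene Gm16754.

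Of the further large MAF and NRF relatives, 4 are given here, and all were at or near 0. *Mafa*, known from pancreatic beta cells, had 2 reads in WT and 1 in KO. *Nrl*, a photoreceptor factor, had no read in either library, where a floor of 3 reads stands for 0.451 CPM in WT and 0.485 CPM in KO. *Nfe2*, the blood cell member of the NRF family, had 0 and 3 reads, and *Nfe2l3* had 0 and 2. None of the 4 had the 10 reads needed for a fold change. A count near 0 in these tables of unique reads need not mean low expression, since the ferritin heavy chain gene *Fth1*, which most cells express strongly, had 0 reads in WT and 1 in KO.

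**Figure D1:**
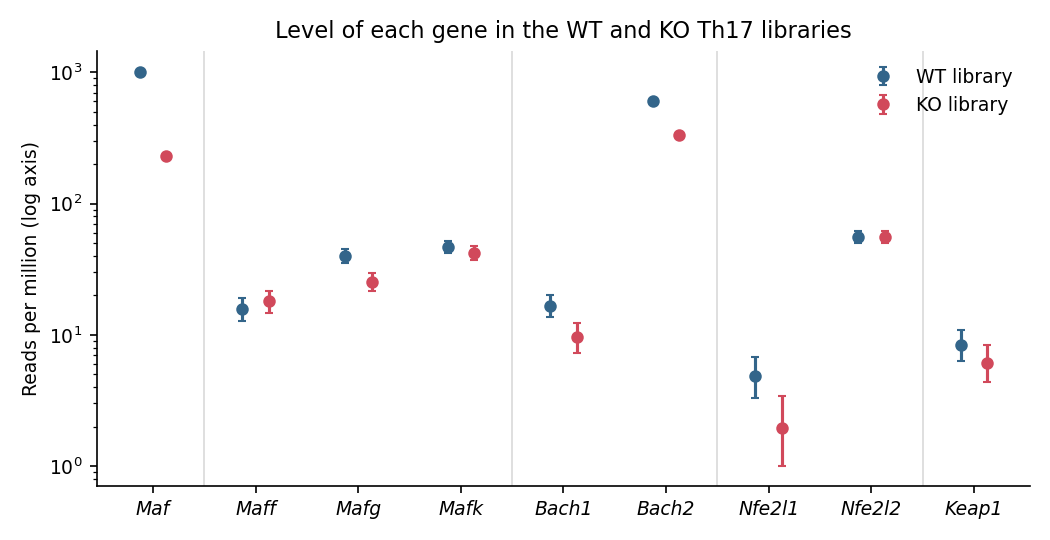
Level of the 9 genes in the WT and the KO library, in CPM on a log axis, with exact 95% counting intervals, 1 library per genotype. *Maf* lies at 1007 CPM in WT and 231 in KO and *Bach2* at 609 and 330, while the 2 points of *Nfe2l2*, at 55.9 and 55.6, coincide.

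**Figure D2:**
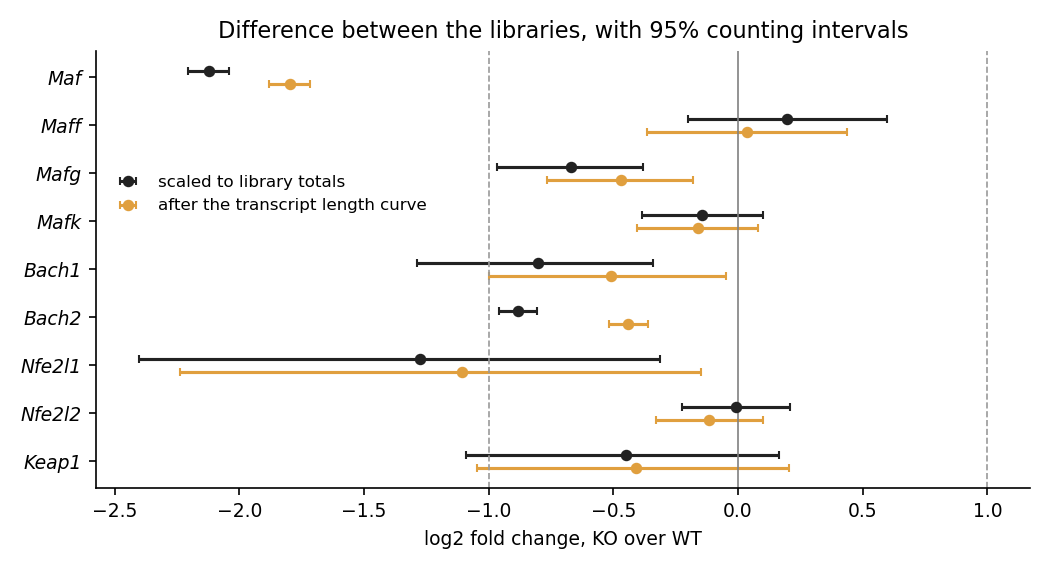
Log2 of KO over WT for the 9 genes with exact 95% counting intervals, as counted and after the transcript length curve was taken off. *Maf* is past the 2-fold line either way, and the wide interval of *Nfe2l1*, -2.40 to -0.31 as counted, crosses that line.

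Set beside all genes, 2 of the 9, *Maf* and *Nfe2l1*, were at least 2-fold lower in KO, where 7.94% of the 10881 tested genes were. None of the 9 was at least 2-fold higher, where 3.75% of tested genes were. An interval wholly below 0 was found for 5 of the 9, *Maf*, *Mafg*, *Bach1*, *Bach2* and *Nfe2l1*, against 25.0% of tested genes, and an interval wholly above 0 for none, against 23.5%. Intervals narrow as reads rise, and here and below the tested genes were not matched for number of reads. The median log2 difference of the 9 was -0.67 and 8 were below 0, whereas the median of tested genes was -0.02 and 51.4% were below 0. *Mafk* and *Nfe2l2* sat mid-distribution, with 40.5% and 50.8% of tested genes lower than they were.

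Long transcripts were lower in KO across the genome, and several of the 9 genes are long. When the tested genes were split into 10 equal classes by transcript length, the median log2 difference ran from 0.29 in the shortest class to -0.44 in the longest, and the share at least 2-fold lower from 3.98% to 15.5%. *Maf* (6360 bases) and *Bach1* (5867 bases) lay in class 9, where the median was -0.29, and *Bach2* (8882 bases) in the longest class. After a smooth curve of this trend was taken off, *Maf* stood at -1.80 (95% interval -1.88 to -1.72) and only 2.02% of tested genes were lower. *Bach2* moved to -0.44 (-0.52 to -0.36), *Mafg* to -0.47, *Bach1* to -0.51 and *Nfe2l1* to -1.11, and the median of the 9 to -0.44. *Maf* thus kept most of its difference, and *Bach2* about as much as the curve removed. These lengths are of the longest annotated transcript of each gene. The shortest coding transcript has 3223 bases for *Maf* and 3462 for *Bach2*, lengths of classes 5 and 6, where the medians were 0.02 and -0.03. Values after the curve at those lengths were not calculated. What part the length of the transcripts had in these values was not tested.

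**Figure D3:**
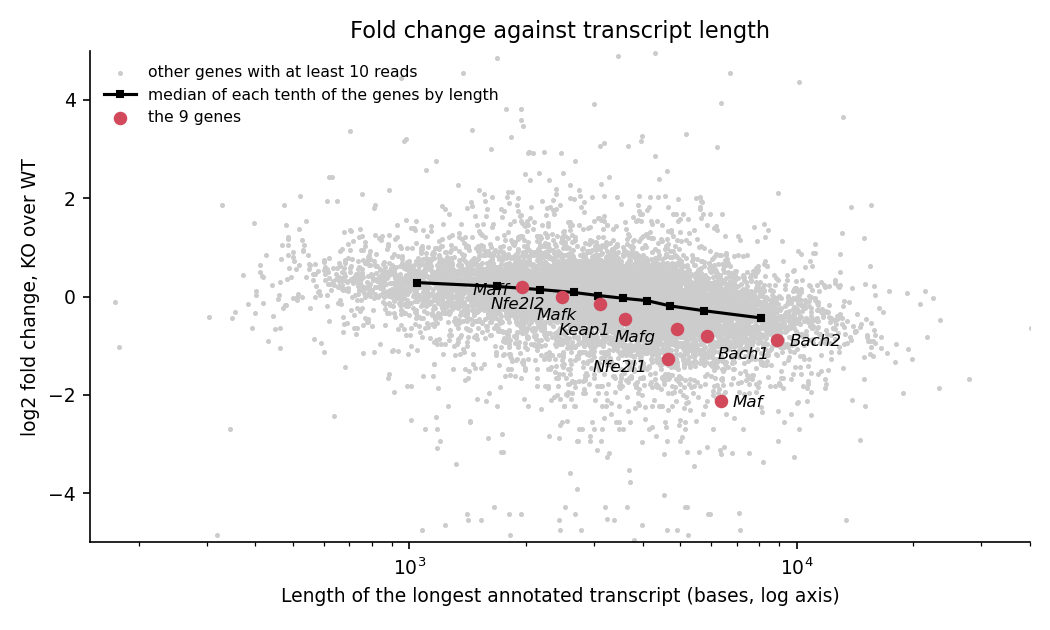
Log2 of KO over WT against the length of the longest annotated transcript, in bases on a log axis, for genes with at least 10 reads, with the median of each of 10 length classes as a black line. The vertical axis is limited to 5 either way, which leaves 16 genes out, and the few genes beyond the drawn lengths are left out too. The line runs from 0.29 to -0.44, and *Maf* lies well below it at -2.12.

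Per length of transcript, in reads per kilobase of the longest annotated transcript per 1000000 counted reads (RPKM), *Maf* was the highest of the 9 in WT at 158, followed by *Bach2* at 68.6. In KO the pair stood at 36.4 and 37.2 with overlapping intervals, so they could not be ordered on this length. *Nfe2l2* followed in both libraries at 22.6 and 22.5, then *Mafk* at 15.1 and 13.7. *Mafg* and *Maff* overlapped in WT at 8.16 and 7.99 and were apart in KO at 5.12 and 9.17. *Bach1* and *Keap1* overlapped in both libraries, at 2.84 and 2.33 in WT and 1.63 and 1.70 in KO, and *Nfe2l1* was lowest on this length at 1.03 and 0.417. The RPKM values of the 3 small MAF genes summed to 31.2 in WT and 28.0 in KO. The order depends on the length used. With the shortest coding transcript, *Bach2* at 95.5 stood above *Maf* at 71.8 in KO, *Mafg* and *Maff* came before *Nfe2l2*, and *Nfe2l1* moved to 9.90 in WT and 3.99 in KO, which left *Bach1* lowest in both libraries.

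The lowest levels in that order carry a further limit, since genes with more curated transcripts held fewer counted reads in both libraries. The median over both libraries was 339 reads for the 7187 genes with 1 curated transcript and 61 for the 455 genes with 6 or more. *Nfe2l1* has 7 curated transcripts, and *Keap1* and *Maff* have 4 each, whereas the other 6 genes have 1. The count tables head their values as unique reads, and of all 50-base stretches of the longest transcript, 1.35% for *Nfe2l1*, 12.5% for *Maff* and 29.6% for *Keap1* occur in 1 annotated transcript alone. The share was also low, 1.65%, for *Bach2*, which had 6093 reads over both libraries. The comparison of KO with WT is within a gene, and the median log2 difference ran only from 0.01 in the first of these classes to -0.12 in the last.

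**Figure D4:**
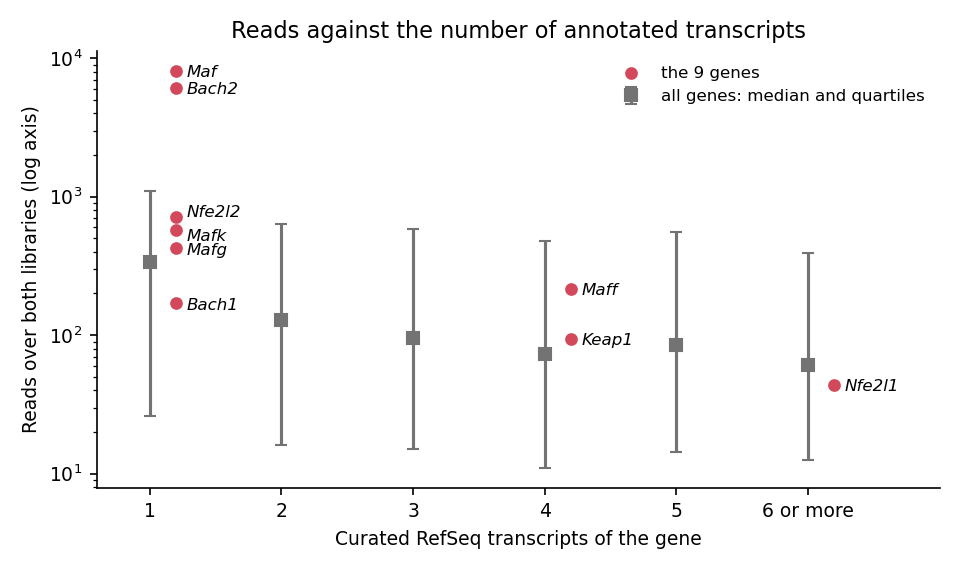
Reads per gene over both libraries, on a log axis, by the number of curated RefSeq transcripts of the gene, with the median and the range between quartiles, and the 9 genes as points. The median runs from 339 reads at 1 transcript to 61 at 6 or more, where *Nfe2l1* sits with 44 reads.

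Ratios of reads between the genes within a library do not depend on scaling to its total. They are given as counted, with no length curve taken off. *Maf* had 9.82 reads per small MAF read in WT and 2.71 in KO, 0.275 of the WT ratio (exact interval 0.242 to 0.313). It had 1.65 reads per *Bach2* read in WT and 0.700 in KO, 0.423 of the WT ratio (0.391 to 0.458), so the lower *Maf* level went beyond that of *Bach2*. Among the small MAF genes, *Mafg* was lower relative to both others. Reads of *Maff* per *Mafg* read were 0.390 in WT and 0.712 in KO, 1.82 times the WT ratio (1.29 to 2.58), and reads of *Mafk* per *Mafg* read were 1.16 and 1.68, 1.44 times the WT ratio (1.11 to 1.88). *Bach1* per *Nfe2l2* read was 0.298 in WT and 0.172 in KO, 0.575 of the WT ratio (0.398 to 0.824). After the length curve the log2 differences of *Mafg* (-0.47), *Mafk* (-0.16) and *Maff* (0.04) lay closer together. So did those of *Bach1* (-0.51) and *Nfe2l2* (-0.11), but not those of *Maf* (-1.80) and *Bach2* (-0.44). Ratios after the curve were not calculated.

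Of the textbook c-Maf targets that could be measured, 4 of 5 had an interval below 0 (25.0% of tested genes had one). Of 8 genes that c-Maf is known to activate in T cells, 5 had at least 10 reads, 2 were at least 2-fold lower and none higher, where 7.94% and 3.75% of tested genes were, with a median log2 difference of -0.76 against -0.02 for all tested genes. *Il10*, an anti-inflammatory cytokine, had 26 reads in WT and 0 in KO, 8.06-fold lower if KO is set at a floor of 3 reads. The exact 95% interval of its log2 difference had an upper end of -2.61. *Il10* was the lowest of the 5 with or without that floor, so the median could not depend on it. *Il21*, a helper T cell cytokine, had 3537 and 1233 reads, a difference of -1.42. *Il23r*, the receptor for IL-23, had 195 and 107 reads, a difference of -0.76 (95% interval -1.12 to -0.41). *Ccr6*, a chemokine receptor of Th17 cells, had 5 and 7 reads, and *Il4*, *Il1r1* and *Blk* had 1 or 2 reads in each library. Of the 8 genes, 3 are also among the 5 Th17 markers, and *Il4* is also on the BACH2 list. Of 2 genes that c-Maf is known to repress, *Il22* had no read in either library and *Il2* had 22 and 16, a difference of -0.34 (-1.38 to 0.64).

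Textbook BACH2 targets showed no common direction. Of 12 genes that BACH2 is known to repress in T cells, 6 had at least 10 reads. None passed 2-fold, where 7.94% of tested genes were at least 2-fold lower and 3.75% higher. The median log2 difference was -0.02, as for all tested genes. *Irf4*, an effector T cell factor, had 10145 reads in WT and 5222 in KO, a difference of -0.85 (95% interval -0.90 to -0.81). *Nfil3* had 252 and 183 reads and *Prdm1*, which encodes BLIMP1, 7 and 4. In the other direction, *Gata3*, the Th2 factor, had 75 and 100 reads, the chemokine receptor gene *Ccr4* 1426 and 1662, and *Gzmb* 32 and 37. *Il4*, *Il13* and *Il1rl1* had at most 2 reads in either library, and *Il5*, *Klrg1* and *Ifng* had none.

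Targets of NRF2 in antioxidant defence and NADPH supply leaned higher in KO. Of 20 such genes 16 had at least 10 reads, 1 was at least 2-fold higher (3.75% of tested genes were), and none lower (7.94% were). Of the 16, 13 were above 0, with a median log2 difference of 0.25 against -0.02 for all tested genes. *Ephx1*, an epoxide hydrolase, had 204 reads in WT and 385 in KO, a difference of 1.02 (95% interval 0.77 to 1.27), which became 0.83 after the length curve. The 8 genes with an interval wholly above 0 stand against 23.5% of tested genes with one, not matched for number of reads. *Nqo1* and *Slc7a11*, commonly used NRF2 readouts, had 1 and 0 reads and 0 and 2 reads, and could not be compared.

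BACH1 targets in heme and iron handling were mostly above 0, by less than 2-fold. Of 8 genes 6 had at least 10 reads, and none passed 2-fold, where 7.94% of tested genes were at least 2-fold lower and 3.75% higher. Of the 6, 5 were above 0. The interval lay wholly above 0 for 2 and wholly below 0 for 1, against 23.5% and 25.0% of tested genes. The median was 0.17 against -0.02 for all tested genes, and 0.07 after the length curve. *Slc48a1*, a heme transporter, was lowest with 688 and 560 reads, a difference of -0.19, and *Ftl1*, the ferritin light chain, highest with 3878 and 5387, a difference of 0.58.

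All 31 proteasome subunit genes, targets of NRF1, had at least 10 reads and a log2 difference above 0, with a median of 0.45. The interval lay wholly above 0 for 27 of them, against 23.5% of tested genes, which were not matched for number of reads. None passed 2-fold, where 3.75% of tested genes were at least 2-fold higher and 7.94% lower. They ranged from *Psmb1*, with 1527 reads in WT and 1448 in KO and a difference of 0.03, to *Psmc6*, with 422 and 607 reads and a difference of 0.63. Their summed level was 4352 CPM in WT and 5753 CPM in KO. Proteasome transcripts are short, and after the length curve their median was 0.25 and *Psma6* (-0.19), *Psmb1* (-0.13) and *Psmd8* (-0.06) were below 0.

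Genes that degrade or process NRF proteins showed neither a 2-fold difference nor a common direction. Of 14 genes 12 had at least 10 reads, and the median was -0.12. None was at least 2-fold lower or higher, where 7.94% and 3.75% of tested genes were. *Ddi2*, the protease that cleaves NRF1, was lowest with 308 reads in WT and 144 in KO, a difference of -0.99 (95% interval -1.29 to -0.70), which became -0.52 after the length curve. *Rbx1*, a subunit of the ligase that KEAP1 serves, was highest with 690 and 909 reads and a difference of 0.50.

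**Figure D5:**
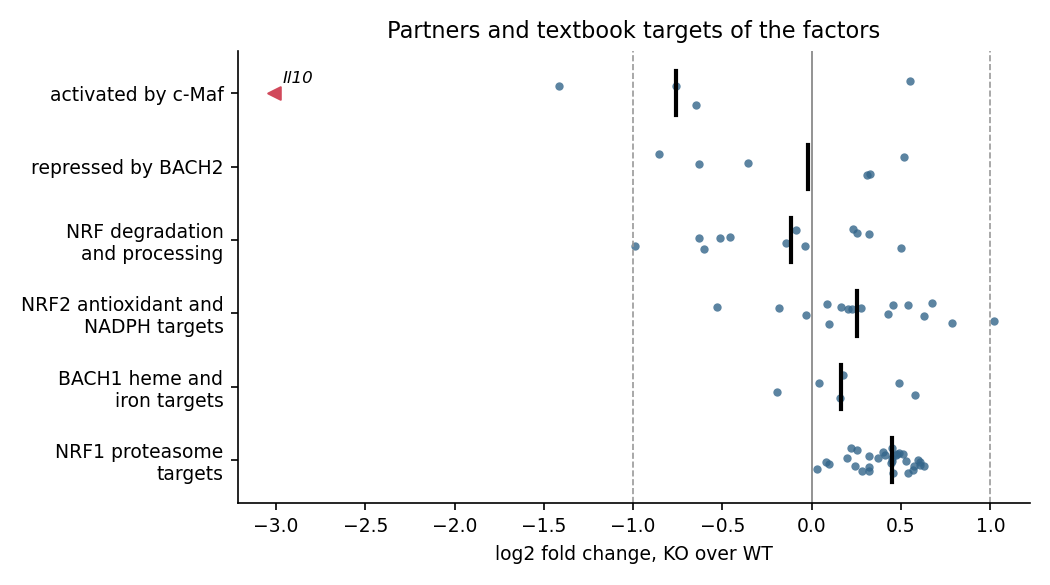
Log2 of KO over WT of single genes with at least 10 reads in 6 lists of partners and textbook targets, with the median of each list as a bar and dashed lines at 2-fold. *Il10*, with no read in KO, is drawn as an arrow at -3.01, its value with KO set at a floor of 3 reads. The proteasome points all lie to the right of 0, and 4 of the 5 genes activated by c-Maf to the left.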

How the data were processed

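RNA-seq of 1 WT and 1 KO Th17 library was used, and the other 6 samples of the series, ChIP and input libraries, were not analysed here. The authors deposited whole-number read counts per gene, not normalized, headed per the file headers as unique reads. Per the study's methods, reads were aligned to mm10 with SOAP2, and the submitters' processing notes also name Bowtie, HTSeq and bcl2fastq without a role. The counting annotation, the strand setting and what made a read unique are not given in the sources used here, and these can change the level of a gene that overlaps another or has several transcripts.

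A gene missing from 1 table was given 0 reads there. Counts were scaled to the library total, with 0.5 added to each for fold changes, and genes whose reads summed to 10 or more were kept. A gene was called at 2-fold or more. The study also required a false discovery rate, which was left out because 1 library per genotype allows no test. Intervals are exact Clopper-Pearson for fold changes, Poisson for levels and conditional for ratios (SciPy 1.17.1, Python 3.11.15), and the calculation was tested on simulated data. A floor of 3 reads was used for counts of 0. Transcript lengths came from GENCODE M21 and curated transcripts and promoter windows from RefSeq (GRCm38.p6), and 12841 of 13704 gene names matched a current symbol, 804 an older one and 59 none. The length curve is a lowess fit with span 0.3 (statsmodels 0.14.6).

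The members and lists were chosen with earlier results of these data known, and the lists were written from general knowledge. Named were the 9 genes, 5 relatives, *Trim28*, every gene of the short c-Maf and BACH2 lists, the genes past 2-fold of each other list or else its lowest and highest, and the markers with most reads or past 2-fold, except a few genes that are not reported here by name. *Nqo1*, *Slc7a11*, *Pax5*, *Lck*, *Cd3d*, *Cd3g*, *Fth1*, *Psma6*, *Psmd8* and the overlapping genes were named after their values were seen. Alternatives were the scaling of edgeR 4.0.16 and DESeq2 1.42.0 (R 4.3.3), 5 added to each count, other read filters, a 1.5-fold threshold, and length and GC curves. Keeping only genes with 1 curated transcript was chosen after seeing the data.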

Additional observations from a re-analysis of the deposited data

How the results depend on the processing

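No paired analysis was possible because each genotype had 1 library and no test was made. TMM, upper-quartile and DESeq2 scaling each shifted every log2 difference by 0.02 or 0.01, and 5 added to each count left the median of the 9 genes at -0.65. With a 1.5-fold threshold 5 of the 9 genes were lower. Of the 6 with 1 curated transcript, 1 was at least 2-fold lower. The shares of all tested genes under these 2 settings were not calculated, so the counts have nothing to be set beside. The length curve moved *Maf* to -1.80, *Bach2* to -0.44 and the list medians to 0.020 for NRF degradation, 0.39 for NRF2 targets, 0.25 for the proteasome, -0.86 for c-Maf activated and -0.15 for BACH2 repressed genes. The GC curve moved *Maf* to -2.04 and NRF degradation to 0.0070. With at least 1 read over both libraries the medians were -0.30 for NRF degradation, -0.64 for c-Maf activated and -0.36 for BACH2 repressed genes, and with at least 10 reads in each library the last was 0.31, as fewer genes were left. With 1 curated transcript NRF degradation was at 0.28. The cause of the moves under the length and GC curves was not tested. Depth limits *Nfe2l1*, *Keap1* and *Bach1*, whose intervals are wide.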
